A study of Danio rerio with 6 samples.

Results

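The genes described here encode the contractile filaments of skeletal muscle and the proteins that release, buffer and pump its calcium. The 56 genes were chosen by name, with earlier results of these data known. Counts of members set beside shares of all genes are therefore a description and no test of the set. Of the 56 genes 55 were found by symbol among 23876 genes with a symbol in the deposited table. All 55 passed the filter on low values, and each is represented by its transcript with the highest mean. The missing symbol is myhz1.3, a fast myosin heavy chain gene, which is taken up at the end of the account of the heavy chains.

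Expression was measured by polyadenylated RNA sequencing of zebrafish larvae, taken whole at 7 days post fertilization, with all embryos raised in E3 medium at 28.5 °C. The mutant group held 3 pools of homozygous larvae, labelled znf469-KO per sample and znf469-4del for the series, and the wild type group held 3 pools labelled wt. Each pool was 50 whole larvae and gave 1 library, and the labels name no strain, no clutch and no number of mutant lines. The p-values therefore speak of the spread between these pools only, not between clutches or lines. The limma fit used an intensity trend, which draws the spread of each gene towards that of genes of similar abundance. In a whole-larva pool, fewer muscle cells and less RNA per muscle cell cannot be told apart.

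Skeletal muscle shortens when myosin heads of the thick filament pull on actin of the thin filament. Calcium leaves the sarcoplasmic reticulum through ryanodine receptors, which are opened by the voltage sensor of the surface membrane, and binds troponin C, which shifts tropomyosin and exposes actin. Calsequestrin holds the calcium inside the store, parvalbumin binds it in the cytosol of fast fibres, and a calcium pump returns it. Zebrafish trunk muscle has separate fast and slow fibres that use different myosin, troponin and tropomyosin genes.

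Depth was even, at 8111192 to 9576627 reads over 1 transcript per gene in mutant pools and 9187098 to 9683579 in wild type pools. The summed normalized read counts of the genes tested were 10317734 in mutant replicate 2 and 8359042 to 9581786 in the other pools. Overlaps between groups that rest on mutant replicate 2 thus depend on the deposited scaling. The znf469 transcript had 233, 186 and 209 normalized read counts in mutant pools and 296, 198 and 206 in wild type pools. The groups overlapped, and this level is no check of the labels, as a mutated gene can keep its transcript. On the first principal component (43.1% of the variance) mutant replicates 1 to 3 were at -58.6, -24.2 and -64.0 and wild type replicates 1 to 3 at 13.7, 60.0 and 73.0. Mutant replicate 2 and wild type replicate 1 were thus the pools nearest the other group. On the second (25.5%) mutant replicate 2 was at -63.0 and wild type replicate 1 at 73.1, apart from the other pools of their groups. The clock gene per3 also split the pools within groups, with 354, 95.9 and 518 in mutant replicates 1 to 3 and 564, 88.3 and 86.1 in wild type replicates 1 to 3. Counts of genes are therefore also given without mutant replicate 2 and wild type replicate 1, although this leaves high per3 in both remaining mutant pools and low per3 in both remaining wild type pools. They are given as well with the log2 level of per3 as a term in the fit. A gene called more abundant than another has the higher normalized read count, which is not corrected for transcript length.

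Muscle transcripts were lower in the mutant for 9 of the 55 genes, and none passed the test in the other direction. The 9 encode the calcium store protein calsequestrin (casq1a), the actins acta1a and acta1b, the troponin I genes tnni2a.2, tnni2a.3 and tnni2b.2, the Z-disc proteins myoz1a and myoz1b, and a myosin binding protein of slow fibres, mybpc1. Among all 22803 genes tested, 2.18% were called lower and 2.31% higher (limma on log2(value + 1), Benjamini-Hochberg adjusted p under 0.05). The median log2 fold change of the 55 genes was -0.45, beside -0.00 over all genes, and 47 of the 55 values were negative, beside 50.1% of all genes. The 3 mutant pools lay below the 3 wild type pools in 24 of the 55 genes, where 11.8% of all genes did so, and above them in 1 gene, smyhc2, where 11.6% of all genes did so. In limma at an unadjusted p under 0.05, before any adjustment, 25 members were lower and 1 (smyhc2) higher, beside 9.17% and 9.03% of all genes. The edgeR test with TMM scaling called the same number, 9 lower and 0 higher, beside 1.95% and 2.23% of all genes. DESeq2 called 18 lower and 0 higher, beside 3.0% and 3.27%. Without both pools that stood apart, 34 genes passed lower and 3 higher, beside 11.8% of all genes in each direction. With per3 as a term, 14 passed lower and 0 higher, beside 3.94% and 5.25%.

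**Figure D1:**
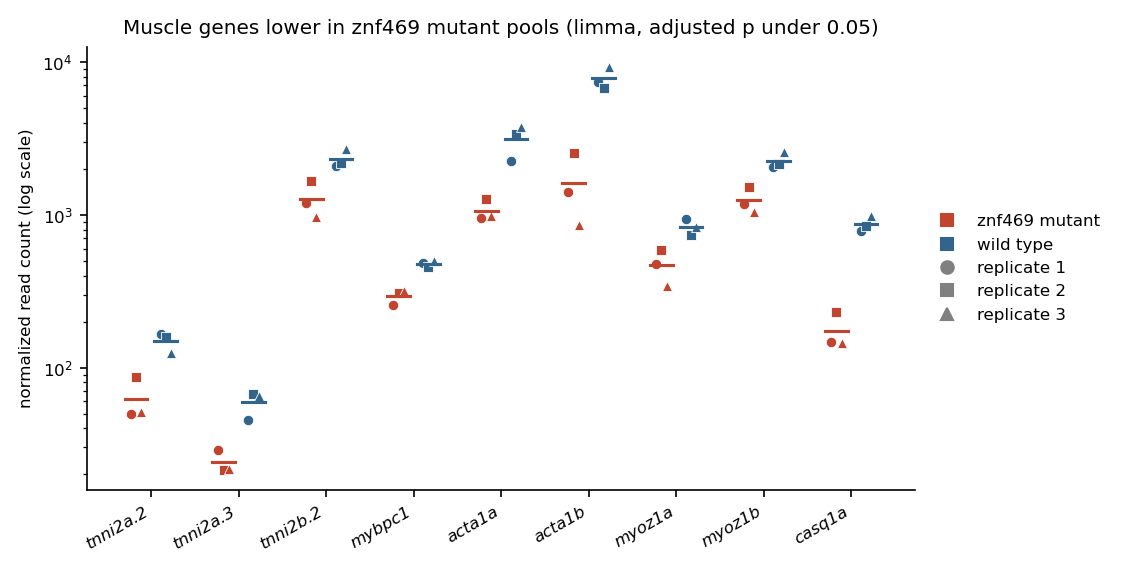
Normalized read counts (log scale) of the 9 muscle genes called lower in the mutant, with mutant pools in red to the left of wild type pools in blue, and bars at the group means. In each gene the 3 mutant pools lie below the 3 wild type pools, and the gap is widest for casq1a and acta1b.

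The 55 genes took 9.56%, 9.26% and 7.97% of the reads in mutant replicates 1 to 3 and 12.0%, 11.9% and 13.5% in wild type replicates 1 to 3. Every mutant pool was thus below every wild type pool in the share of its reads that came from these 55 genes.

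Among the fast heavy chains, the motor proteins of the thick filament, none of the 6 found by symbol passed (0 lower and 0 higher in limma, edgeR and DESeq2, and 0 at an unadjusted p under 0.05 in limma). Their log2 fold changes lay between -0.34 and 0.03. The most abundant, myhz1.1, had 121663, 106127 and 118180 normalized read counts in mutant pools and 153152, 128639 and 135877 in wild type pools. Its groups did not overlap, but the log2 difference of -0.27 was smaller than its error in the main fit (SE 0.32, limma, Benjamini-Hochberg adjusted p = 0.722). With no intensity trend the SE was 0.18, and the gene did not pass either (limma, Benjamini-Hochberg adjusted p = 0.503). The gene myhz1.2 had 49585, 40680 and 45977 in mutant pools and 52735, 38487 and 42493 in wild type pools, and myhz2 was between 50272 and 60487 in mutant pools and between 54173 and 55226 in wild type pools. In both the pools of the groups were mixed, and the log2 fold change was 0.03. The less abundant heavy chains myhb, myha and myhc4 were at -0.27, -0.34 and -0.14. The last of these, a fast heavy chain, ranged within wild type pools alone between 538 and 1668. Without both pools that stood apart it was the 1 of these 6 heavy chains to pass (-0.72, limma, Benjamini-Hochberg adjusted p = 0.0110), where 11.8% of all genes passed lower.

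The gene myhz1.3 is not named in the deposited table. Its transcript stands there under the symbol ns:zf-e68, by a match of the transcript to the RefSeq table of the assembly GRCz12tu, so it is kept out of the counts above. It had 25115, 21123 and 23460 normalized read counts in mutant pools and 44046, 40133 and 42911 in wild type pools. The groups were well apart, at -0.87 on the log2 scale (SE 0.22), but the limma test did not pass (Benjamini-Hochberg adjusted p = 0.058). The results of edgeR (TMM scaling, Benjamini-Hochberg adjusted p = 0.0305) and DESeq2 (adjusted p = 2.06e-05) were past the threshold. Over the limma settings the adjusted p was 0.00620 (without both pools that stood apart) to 0.241 (without wild type replicate 2). It was also under 0.05 with per3 as a term (0.0131), sums over transcripts (0.0136), total counts as the scaling (0.0350) and without mutant replicate 2 (0.0334). The neighbouring heavy chain genes are close copies, so reads may be divided among them in ways the table does not show.

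The 4 fast light chains, which sit at the neck of the myosin head, all had lower mutant means, with log2 fold changes of -0.56 to -1.12. None passed in limma or in edgeR. At an unadjusted p under 0.05 in limma 3 of 4 were lower, beside 9.17% of all genes. In DESeq2 myl1 and mylz3 passed, beside 3.0% of all genes called lower. The most abundant, the regulatory light chain mylpfa, had 53589, 73894 and 42436 in mutant pools and 68284, 79149 and 99369 in wild type pools, and mutant replicate 2 was above wild type replicate 1. The essential light chain mylz3 had 22776, 38527 and 16117 in mutant pools and 46620, 49564 and 63371 in wild type pools. Its groups did not overlap (log2 fold change -1.12, SE 0.33, limma, Benjamini-Hochberg adjusted p = 0.0925). In the other essential light chain gene, myl1 (-0.84), mutant replicate 2, at 7724, was just above wild type replicate 1, at 7715. As a share of each pool's reads the 4 light chains together did not overlap. They took 0.996%, 1.22% and 0.779% in mutant pools and 1.47%, 1.57% and 1.89% in wild type pools. With total counts as the scaling, myl1 and mylz3 passed (limma, Benjamini-Hochberg adjusted p = 0.0462 and 0.0378), where 2.41% of all genes passed lower. All 4 light chains passed without both pools that stood apart, with mylz3 at -1.55, in a setting where 11.8% of all genes passed lower.

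The 9 fast troponin genes had a median log2 fold change of -0.79. Troponin T binds tropomyosin, troponin I holds the filament off in the absence of calcium, and troponin C senses calcium. Of these genes 3 were called lower, all of them troponin I genes, beside 2.18% of all genes. All 9 had negative log2 fold changes, from -0.25 to -1.28, beside 50.1% of all genes. The transcript of tnni2a.2 had 49.7, 86.2 and 51.5 normalized read counts in mutant pools and 165, 158 and 125 in wild type pools (log2 fold change -1.28 ± 0.27 SE, limma, Benjamini-Hochberg adjusted p = 0.0246). The transcript of tnni2a.3 had 29.0, 21.5 and 21.6 in mutant pools and 45.3, 66.7 and 65.3 in wild type pools (-1.25, SE 0.30, limma, Benjamini-Hochberg adjusted p = 0.0458). Both are scarce beside their neighbours, and in both the mutant pools were all below the wild type pools.

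The third gene, tnni2b.2, had 1195, 1666 and 967 in mutant pools and 2090, 2192 and 2697 in wild type pools (-0.89, SE 0.21, limma, Benjamini-Hochberg adjusted p = 0.0402). The most abundant troponin, tnnt3b, had 17369, 22651 and 12984 in mutant pools and 27206, 27622 and 34798 in wild type pools. Its groups did not overlap and its log2 fold change was -0.79, yet it did not pass (SE 0.26, limma, Benjamini-Hochberg adjusted p = 0.129). Troponin C (tnnc2) was at -0.94 with groups that did not overlap (adjusted p = 0.0948). Both tnnt3b and tnnc2 passed in DESeq2 (adjusted p = 0.00683 and 0.00327) and in limma with total counts as the scaling (0.0444 and 0.0350). The calls of tnni2a.2 and tnni2b.2 ended in limma without mutant replicate 1 or 3 or wild type replicate 2 or 3, and that of tnni2a.3 also without mutant replicate 2, with adjusted p from 0.0517 to 0.244. With no intensity trend those of tnni2a.2 and tnni2b.2 ended (limma, adjusted p = 0.0639 and 0.135). That of tnni2a.3 ended with sums over transcripts (0.0582). All 9 troponin genes passed lower without both pools that stood apart, a setting in which 11.8% of all genes passed lower. With per3 as a term 4 passed lower (tnni2a.2, tnni2a.3, tnni2b.2 and tnnc2), beside 3.94% of all genes.

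Some troponin genes also share a place in the genome that the choice of genes did not use. In the GRCz12tu gene order, tnni2a.1, tnni2a.2, tnni2a.3 and tnni2a.4 lie next to each other, 6 to 9 protein-coding genes away from znf469, and tnnt3a lies 12 genes away. No other member was on that chromosome. Of these 5 genes 2 were called lower, and of the other 50 members 7 were, beside 2.18% of all genes. Within the cluster the gene nearest znf469, tnni2a.1, was at -0.47 and the most abundant, tnni2a.4, at -0.60, and neither passed (adjusted p = 0.412 and 0.233 by limma, Benjamini-Hochberg). Genes this close to a mutated locus are mostly inherited with it, and the part of this in the calls was not tested.

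Over the 3 fast binding proteins the median was -0.45 (log2), and none passed in limma or in edgeR. In DESeq2 actn3a passed, beside 3.0% of all genes called lower. At an unadjusted p under 0.05 in limma 2 were lower, beside 9.17% of all genes. The fast alpha-actinins, which anchor actin at the Z-disc, had values that did not overlap between groups. For actn3a these were 12520, 12492 and 10495 in mutant pools and 17114, 15109 and 18080 in wild type pools, and actn3b averaged 5358 ± 423 in mutant pools and 7303 ± 421 in wild type pools (SD, n = 3 each). They were at -0.50 and -0.45 on the log2 scale and missed the threshold (limma, Benjamini-Hochberg adjusted p = 0.194 and 0.167). With every transcript tested by itself, 1 of the 2 transcripts of actn3b passed (-0.63, limma, Benjamini-Hochberg adjusted p = 0.0219). The fast myosin binding protein C gene mybpc2b had 853, 1039 and 901 in mutant pools and 757, 898 and 851 in wild type pools. Its groups overlapped, at 0.15.

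**Figure D2:**
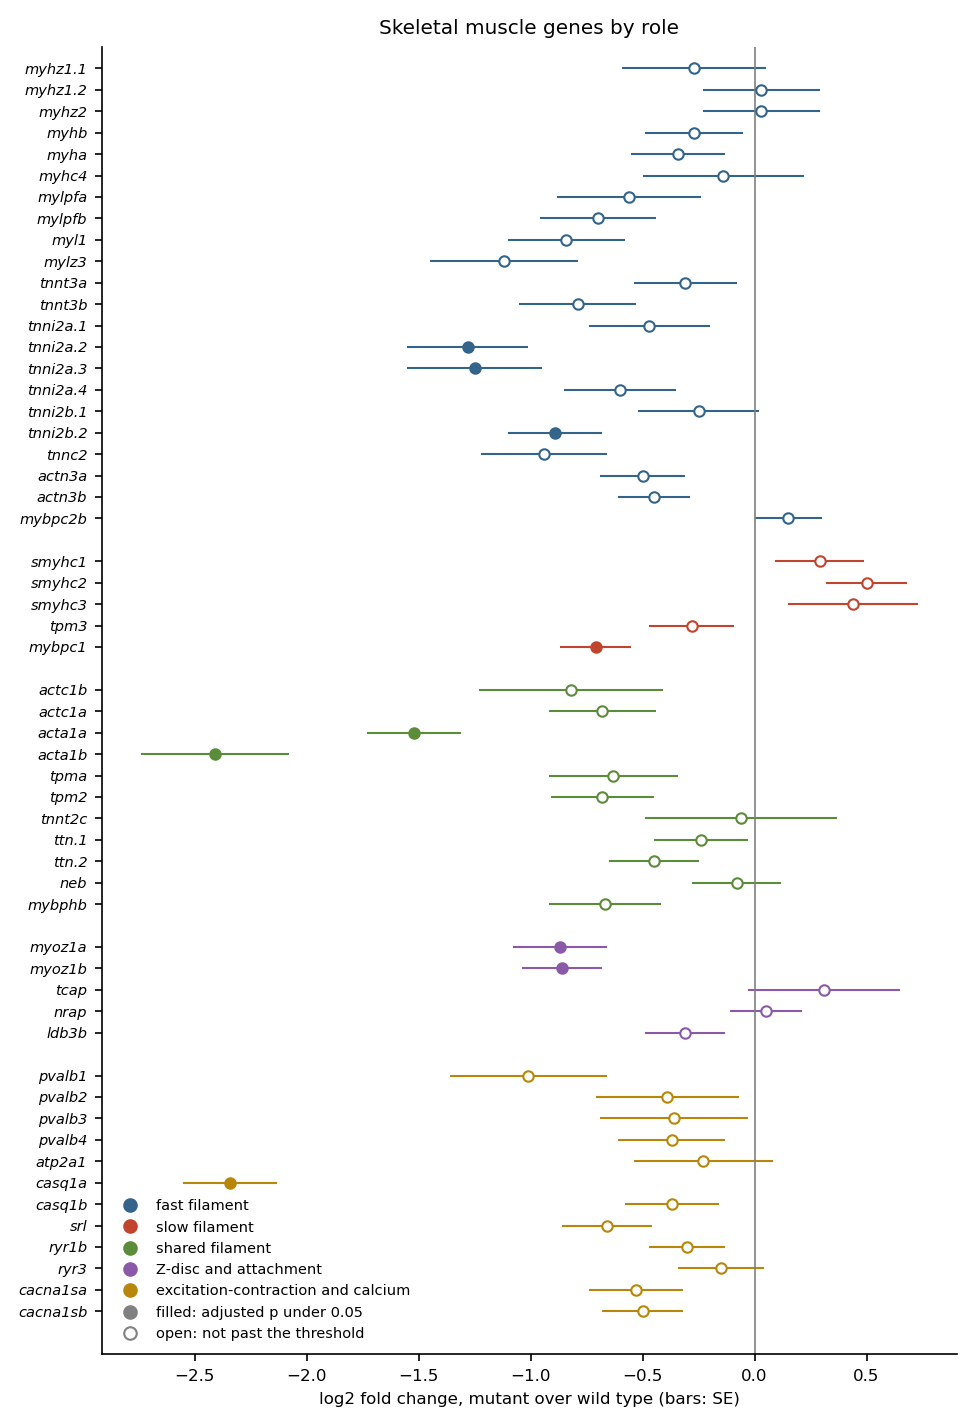
Log2 fold change of each of the 55 muscle genes, mutant over wild type, with bars of 1 SE and genes grouped by role, where filled points passed the limma test. Most points lie left of 0. The fast heavy chains lie between -0.34 and 0.03 and the 3 slow heavy chains smyhc1, smyhc2 and smyhc3 between 0.29 and 0.50, all as open points. The gene myhz1.3 is not shown.

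Among slow filament genes the 3 slow heavy chains had positive log2 fold changes and the 2 others had negative ones. The 3 slow heavy chain genes lie close together in the GRCz12tu gene order. How reads were divided among them was not tested, so they may not be 3 separate observations. Over the 5 slow filament genes the median log2 fold change was 0.29, beside -0.49 over the 22 fast filament genes found. The slow median is the value of smyhc1. The 2 classes differ in make-up, as the slow class holds no light chain or troponin and the fast class does. Of 14 other genes in a list named for slow fibres 10 were negative and 4 positive, with a median of -0.21. In it the light chain gene myl10 was at -0.52 and the troponin C gene tnnc1b at -0.61. The troponin I genes tnni1c and tnni1d were at -1.73 and 0.34. Of these genes tnni1c passed (limma, Benjamini-Hochberg adjusted p = 0.0176). The others were named after their values were seen, and none of them passed in limma. That list is mixed: it holds mybpc2a (-1.64) and mybpha (-1.84), not taken as slow fibre genes here, a reading made with their values known. It holds sox6 (0.15) and prdm1a (-0.41), which encode no filament protein. It also holds tnni1b (-0.21), which is among the cardiac markers as well. The main slow heavy chain, smyhc1, had 13649, 9976 and 13424 in mutant pools and 11004, 10121 and 8958 in wild type pools, and mutant replicate 2 lay inside the wild type range. The heavy chain smyhc2 had 1840, 1957 and 1919 in mutant pools and 1578, 1490 and 1035 in wild type pools. It was the 1 member whose mutant pools were all above the wild type pools, at 0.50 (SE 0.18, limma, Benjamini-Hochberg adjusted p = 0.164). The third gene, smyhc3, was at 0.44 with overlapping groups. All 3 passed upward without both pools that stood apart, with adjusted p from 0.0175 to 0.0396, where 11.8% of all genes passed higher. With per3 as a term none of the 3 passed.

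The 2 other slow genes were lower in mutant means. The slow myosin binding protein C gene mybpc1 fell, with 257, 307 and 318 in mutant pools and 483, 458 and 496 in wild type pools (-0.71, SE 0.16, limma, Benjamini-Hochberg adjusted p = 0.0318). All of its 15 transcripts were called lower when each was tested by itself, and transcripts of 1 gene share reads. Its call ended without mutant replicate 1 or 3 or wild type replicate 2 or 3 (adjusted p up to 0.147), and with no intensity trend (limma, adjusted p = 0.101). The slow tropomyosin tpm3 was at -0.28 and did not pass.

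The balance of slow and fast reads was taken within the heavy chains, which are proteins of similar length in both fibre types. The 3 slow genes took 6.25%, 5.68% and 6.44% of the summed reads of the 9 heavy chain genes found by symbol, with myhz1.3 left out, in mutant pools and 4.60%, 4.91% and 4.08% in wild type pools. Mutant pools were all above wild type pools in this share. It is a share of reads, not of fibres, and it rests on heavy chains alone. The 2 other slow filament genes, and 10 of the 14 in the mixed list of other slow fibre genes, had negative log2 fold changes.

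Among the actins, which form the thin filament, the alpha 1 skeletal genes acta1a and acta1b fell, while actc1a and actc1b, named for cardiac actin although actc1b is abundant in skeletal muscle of the fish, did not pass in limma or edgeR. DESeq2 called actc1b lower (-0.78, adjusted p = 0.0289). The transcript of acta1b had 1415, 2537 and 851 in mutant pools and 7357, 6788 and 9232 in wild type pools (-2.41, SE 0.33, limma, Benjamini-Hochberg adjusted p = 0.00353). For acta1a the values were 956, 1261 and 978 in mutant pools and 2242, 3356 and 3719 in wild type pools (-1.52, SE 0.21, limma, Benjamini-Hochberg adjusted p = 0.00370). Both calls held with each pool left out in turn, with adjusted p of at most 0.0321, and in every other setting run.

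The most abundant muscle transcript, actc1b, had 125510, 185446 and 86568 in mutant pools and 180715, 222893 and 276491 in wild type pools. Mutant replicate 2 was above wild type replicate 1, and the log2 fold change of -0.82 did not pass (SE 0.41, limma, Benjamini-Hochberg adjusted p = 0.334). As a share of each pool's reads the 4 actin genes together did not overlap. They took 1.53%, 1.85% and 1.07% in mutant pools and 2.22%, 2.58% and 3.05% in wild type pools. With total counts as the scaling actc1b did not pass either (limma, Benjamini-Hochberg adjusted p = 0.13). The gene actc1a was at -0.68, with no overlap between groups. The make-up of actin reads differed as well: acta1b was 1.09%, 1.33% and 0.953% of the 4 actin genes in mutant pools and 3.83%, 2.89% and 3.16% in wild type pools. The coding sequences of actins are near copies, so reads of acta1a and acta1b may have been exchanged with those of actc1b, which is far more abundant in reads.

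Of the 7 other filament genes none passed in limma or in edgeR. In DESeq2 mybphb passed, beside 3.0% of all genes called lower. At an unadjusted p under 0.05 in limma 3 were lower, beside 9.17% of all genes. The tropomyosin tpma, which lies along actin, had 32978, 43858 and 25478 in mutant pools and 44995, 48356 and 63195 in wild type pools, so that its groups just failed to overlap (-0.63). The second tropomyosin, tpm2, was at -0.68 and the myosin binding protein H gene mybphb at -0.67, both without overlap. The giant proteins showed smaller differences: the titins ttn.1 and ttn.2, the springs of the sarcomere, were at -0.24 and -0.45, and nebulin (neb), the ruler of the thin filament, at -0.08. The troponin T gene tnnt2c was scarce, at 37.0 ± 18.7 in mutant pools and 36.4 ± 12.2 in wild type pools (SD, n = 3 each).

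At the Z-disc, the calsarcins myoz1a and myoz1b, which bind alpha-actinin and calcineurin, both fell. The values of myoz1a were 475, 584 and 341 in mutant pools and 934, 736 and 836 in wild type pools (-0.87, SE 0.21, limma, Benjamini-Hochberg adjusted p = 0.0432). Those of myoz1b were 1168, 1528 and 1038 in mutant pools and 2036, 2142 and 2568 in wild type pools (-0.86, SE 0.18, limma, Benjamini-Hochberg adjusted p = 0.0254). The share of myoz1a in the sum of both was 27.1% ± 2.14 in mutant pools and 27.2% ± 3.71 in wild type pools (SD, n = 3 each), so that the pair differed by like amounts. The call of myoz1b ended without mutant replicate 1 or 3 or wild type replicate 2 or 3, and that of myoz1a also without wild type replicate 1 (adjusted p from 0.0659 to 0.163). With no intensity trend both calls ended (limma, adjusted p = 0.138 for myoz1a and 0.102 for myoz1b). That of myoz1a also ended with sums over transcripts (0.0595).

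The remaining Z-disc and attachment genes did not pass. The most abundant, ldb3b, a PDZ and LIM protein of the Z-disc, had 3225, 4002 and 3194 in mutant pools and 3696, 4177 and 5042 in wild type pools. The titin cap tcap had 156, 392 and 187 in mutant pools and 255, 137 and 171 in wild type pools, with mutant replicate 2 highest of all pools and a log2 fold change of 0.31. The gene nrap, an anchoring protein of growing myofibrils, was at 0.05.

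In the calcium group all 12 genes had negative log2 fold changes, with a median of -0.38, where 50.1% of all genes were negative. Beside 2.18% of all genes called lower, 1 of the 12 passed. That gene was casq1a, calsequestrin of the sarcoplasmic reticulum. It had 148, 231 and 145 normalized read counts in mutant pools and 788, 845 and 986 in wild type pools (-2.34, SE 0.21, limma, Benjamini-Hochberg adjusted p = 0.000373). The highest mutant pool was far below the lowest wild type pool. The call held with each pool left out in turn (adjusted p of at most 0.00425) and in every other setting run (at most 0.00961).

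The second calsequestrin gene, casq1b, did not pass, with 540 ± 138 in mutant pools and 683 ± 88.2 in wild type pools (SD, n = 3 each; -0.37, limma, Benjamini-Hochberg adjusted p = 0.405). As a share of the reads of both genes, casq1a was 20.5%, 26.0% and 27.3% in mutant pools and 57.5%, 54.2% and 56.7% in wild type pools. Every mutant pool was far below every wild type pool in this share. Without both pools that stood apart casq1b passed as well, at -0.63 (adjusted p = 0.0188), beside -2.63 for casq1a.

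**Figure D3:**
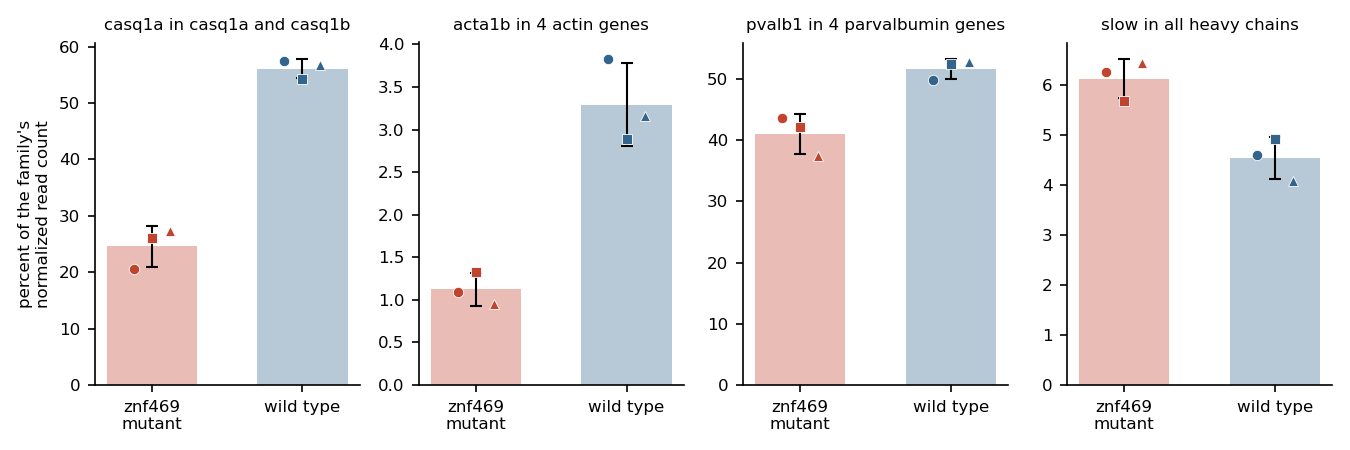
Share of a gene, or group of genes, in the normalized read counts of its family, in percent, with mutant pools in red to the left of wild type pools in blue (circles, squares and triangles are replicates 1, 2 and 3; bars are means with SD). The shares of casq1a, acta1b and pvalb1 are lower in every mutant pool and the share of slow heavy chains is higher.

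The calcium pump atp2a1 of fast fibres had 82161, 92932 and 58717 in mutant pools and 81592, 87070 and 102313 in wild type pools, and the groups were mixed. Sarcalumenin (srl), a protein inside the store, averaged 1416 ± 379 in mutant pools and 2204 ± 254 in wild type pools (SD, n = 3 each) with no overlap, at -0.66 (limma, Benjamini-Hochberg adjusted p = 0.0958). It passed in DESeq2 (adjusted p = 0.0273) and in limma with total counts as the scaling (0.0339). The parvalbumins, the calcium buffers of fast fibres, did not pass in limma or edgeR. In DESeq2 pvalb1 passed, beside 3.0% of all genes called lower. It had the 1 unadjusted p under 0.05 in limma, beside 9.17% of all genes lower. The most abundant, pvalb2, had 45223, 71372 and 39340 in mutant pools and 55861, 62671 and 81294 in wild type pools. In pvalb1 the groups were apart, with 37466, 55831 and 25184 in mutant pools and 59167, 74375 and 96791 in wild type pools (-1.01, SE 0.35, adjusted p = 0.150). Its share of all parvalbumin reads was 41.1% ± 3.24 in mutant pools and 51.6% ± 1.63 in wild type pools (SD, n = 3 each). The genes pvalb3 and pvalb4 were at -0.36 and -0.37.

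The 4 channel genes of excitation-contraction coupling had a median log2 fold change of -0.40. None passed in limma, where 2 were lower at an unadjusted p under 0.05, beside 9.17% of all genes. The ryanodine receptors ryr1b and ryr3 were at -0.30 and -0.15. The more abundant, ryr3, had 5483, 4551 and 4407 in mutant pools and 6536, 4535 and 5021 in wild type pools, with overlap. The voltage sensors cacna1sa and cacna1sb, at -0.53 and -0.50, had groups without overlap and missed the threshold (adjusted p = 0.220 and 0.158 by limma, Benjamini-Hochberg). Without both pools that stood apart 6 of the 12 calcium genes passed lower and 0 of the 4 channels did, beside 11.8% of all genes. With per3 as a term 3 of the 12 passed lower, casq1a, srl and the channel cacna1sb (-0.60, adjusted p = 0.0167), beside 3.94% of all genes.

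Within groups the pools were ordered alike in many of the muscle genes. Mutant replicate 2 had the highest value of the 3 mutant pools in 38 of the 55 genes, mutant replicate 3 the lowest in 33, wild type replicate 3 the highest of its group in 30 and wild type replicate 1 the lowest in 30. Over all 22803 genes these counts were 11547, 7253, 8781 and 10079 in the same order. In the light chains mutant replicate 2 was highest and mutant replicate 3 lowest in 4 of 4, and wild type replicate 3 highest and wild type replicate 1 lowest in 4 of 4. Of the 6 heavy chains mutant replicate 2 was the highest mutant pool in 2, and of the 4 channels in 0. The median coefficient of variation of the 52 members with a mean of 100 or more was 25.4% in mutant pools and 16.4% in wild type pools, beside 15.8% and 14.1% over 10556 genes of such a mean. The pools with high per3 (mutant replicates 1 and 3 and wild type replicate 1) were also those with the lower light chain medians of their groups. With per3 as a term the fast filament median was -0.41, that of the shared filament genes -0.54 and that of the calcium genes -0.30. The pools also differed in neuron transcripts: all 9 neuron markers were lowest in wild type replicate 1 and highest in wild type replicate 3 among the wild type pools, and the part of this in the muscle values was not tested.

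**Figure D4:**
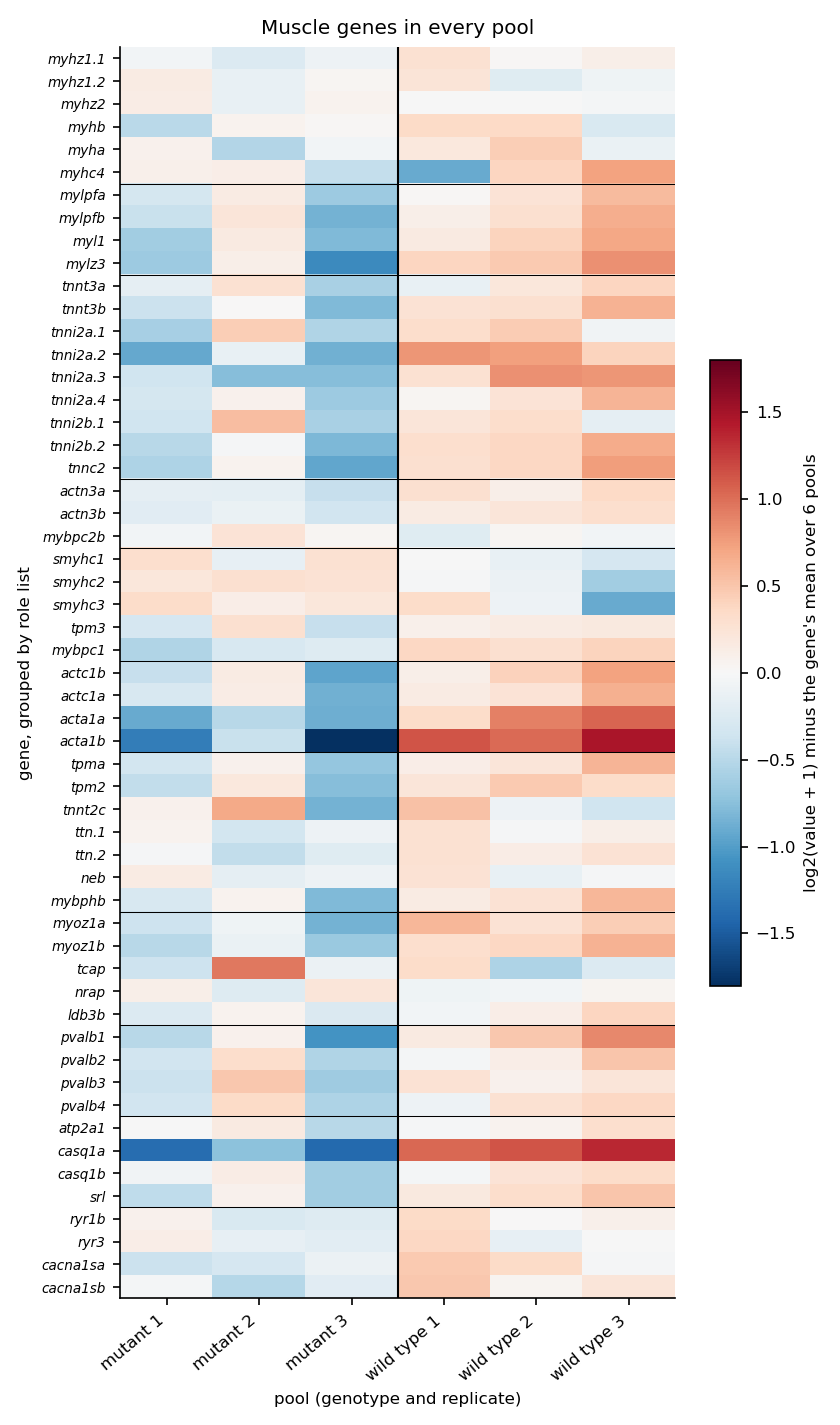
Difference of log2(value + 1) from each gene's mean over the 6 pools, for the 55 muscle genes in rows grouped by role and the pools in columns, mutant to the left of the line. Blue is below and red above the gene's mean; casq1a and acta1b differ between groups in every pool, while most fast light chains and troponins also differ between mutant replicate 2 and mutant replicate 3.

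Other muscle genes were read from lists chosen by function, also with earlier results of these data known. Of 32 other genes of the triad, where surface membrane meets store, and of excitation, 3 were lower and 1 was higher, with a median of -0.18. Of all genes tested, 2.18% were lower and 2.31% higher. The 2 with the smallest p were trdn, triadin, which ties calsequestrin to the ryanodine receptor, and stac3, an adaptor needed for coupling. Triadin had 138, 155 and 95.9 in mutant pools and 297, 323 and 376 in wild type pools (-1.37, SE 0.21, limma, Benjamini-Hochberg adjusted p = 0.00728). The values of stac3 were 257, 235 and 256 in mutant pools and 473, 471 and 455 in wild type pools (-0.90, SE 0.15, adjusted p = 0.00883). The third, chosen after its values were seen, was asph (-0.67), whose gene also yields junctin, a partner of triadin. The gene that rose was atp1a2a, a sodium pump subunit, with 1025, 1038 and 968 in mutant pools and 716, 612 and 669 in wild type pools (0.60, SE 0.14, adjusted p = 0.0402). The call of trdn held with each pool left out. That of stac3 ended without mutant replicate 3 or wild type replicate 2 (adjusted p up to 0.0755), and those of asph and atp1a2a without mutant replicate 1 or 3 or wild type replicate 2 or 3 (up to 0.202 and 0.252). The call of atp1a2a also ended with sums over transcripts (0.0546). With no intensity trend those of asph and atp1a2a ended (limma, adjusted p = 0.101 and 0.132).

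Of the 14 other slow fibre genes 3 were lower and 0 higher, beside 2.18% and 2.31% of all genes. Of these, mybpc2a and mybpha were not taken as slow fibre genes, a reading made with their values known. The smallest p belonged to mybpc2a, a paralog of the fast binding protein mybpc2b, with 81.5, 130 and 94.8 in mutant pools and 316, 336 and 292 in wild type pools (-1.64, SE 0.21, limma, Benjamini-Hochberg adjusted p = 0.00262). The slow-type troponin I gene tnni1c had 50.6, 66.8 and 25.8 in mutant pools and 129, 153 and 170 in wild type pools (-1.73, SE 0.33, adjusted p = 0.0176). The third, also chosen after its values were seen, was mybpha (-1.84), a myosin binding protein H gene. The call of mybpc2a held with each pool left out, while that of tnni1c ended without wild type replicate 2 or 3 (adjusted p up to 0.0927) and that of mybpha without mutant replicate 1 or 3 or wild type replicate 2 or 3 (up to 0.132). With no intensity trend those of tnni1c and mybpha ended (limma, adjusted p = 0.0611 and 0.0803).

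Of 25 other Z-disc and M-band genes 1 was lower and 0 higher, beside 2.18% and 2.31% of all genes. The gene was the calsarcin myoz2a, with 192, 237 and 201 in mutant pools and 408, 505 and 511 in wild type pools (-1.17, SE 0.17, limma, Benjamini-Hochberg adjusted p = 0.00497). It was called with each pool left out, and the median of this list was -0.08. Of 15 thin filament caps and assembly factors 1 was lower and 1 higher, beside the same shares of all genes. A single call in lists this short says little about the list. The lower gene was smyd1a, a methyltransferase needed to build myofibrils, at 1662, 1941 and 1371 in mutant pools and 3027, 3486 and 4597 in wild type pools (-1.15, SE 0.20, limma, Benjamini-Hochberg adjusted p = 0.0112). In the same list klhl40b, a Kelch protein that steadies thin filament proteins, was higher at 87.1, 110 and 101 in mutant pools and 55.7, 18.6 and 19.8 in wild type pools (1.81, SE 0.40, adjusted p = 0.0312). The call of smyd1a ended without mutant replicate 3 or wild type replicate 2 (adjusted p up to 0.0635) and that of klhl40b with any pool but wild type replicate 1 left out (up to 0.143) and with edgeR (0.0592 with TMM). With no intensity trend both calls ended (limma, adjusted p = 0.0617 for smyd1a and 0.0837 for klhl40b).

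Without both pools that stood apart, 11.8% of all genes passed in each direction. The counts lower and higher were 7 and 4 of 32 in the triad list and 6 and 1 of 13 in the slow list. They were 4 and 6 of 24 in the Z-disc and M-band list and 4 and 4 of 15 in the assembly list. In that setting the median of the triad list turned to 0.01 and that of the Z-disc and M-band list to 0.17, and with per3 as a term that of the assembly list turned to 0.24.

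Synapse and regulatory genes of muscle had medians near 0. None of 11 genes of the neuromuscular junction passed in limma (median 0.11). At an unadjusted p under 0.05, 2 were lower and 1 higher, beside 9.17% and 9.03% of all genes. The smallest p was that of rapsn, the clustering protein of acetylcholine receptors, at -0.76 (limma, Benjamini-Hochberg adjusted p = 0.131). None of 16 muscle regulatory factors passed in limma (median -0.10), and at an unadjusted p under 0.05, 1 was lower and 1 higher. Their smallest p was that of myod1, at -0.73 (adjusted p = 0.0867). Of heart transcripts, none of 12 cardiac markers passed (limma, 0 at an unadjusted p under 0.05), their summed level was 3397 to 3529 in mutant pools and 3331 to 3795 in wild type pools, and the most abundant, vmhc, was at 0.08. The summed level of 7 smooth muscle markers was 1891 to 3204 in mutant pools and 2493 to 2869 in wild type pools, with acta2 the most abundant. That of 9 neuron markers was 21133 to 23597 in mutant pools and 20616 to 28683 in wild type pools, with elavl3 the most abundant. The tubulin tubb5, named after its values were seen, was the 1 neuron marker called lower (-1.17), where 2.18% of all genes were. Its call ended without mutant replicate 1 or 3 or wild type replicate 2 or 3 (limma, adjusted p up to 0.133), and with no intensity trend (0.111). In the setting without both pools that stood apart, 5 of 9 neuron markers (median -0.39), 3 of 7 smooth muscle markers (median -0.39) and 1 of 12 cardiac markers were lower. In the same setting 1 cardiac marker was higher, and 11.8% of all genes passed in each direction. The part of these cell types in the muscle counts of that setting was not tested.

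In the authors' deposited table, 22 of the 55 genes were lower and 1 was higher at a q-value under 0.05, beside 4.28% and 4.70% of all genes, and all 9 genes named above were among the 22. For casq1a the authors' deposited table gives a log2 fold change of -2.32 and a q-value of 1.98e-31. The 1 gene that was higher in the authors' deposited table was smyhc2 (0.48, q-value 0.043). The sources used here do not name the test behind these values.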

How the data were processed

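The deposited table gives 1 signal value per transcript and library, with no unit named. Each was a whole multiple of 1 step per library (100% of values within 0.001), so the deposited signal was taken as reads divided by 1 factor per library. The step nearest to 1 was that of wild type replicate 3, at 0.990. Its log2 fold change, p-value and q-value are the authors', per the file headers. GRCz11 is the build named in the submitters' processing notes, and the sources used here do not give the aligner, counter or strand setting.

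The transcript with the highest mean stood for each gene. The test was limma 3.58.1 (R 4.3.3, intensity trend) on log2(value + 1), a scale that understates changes of low genes, for genes at 1 or more in at least 3 libraries, with Benjamini-Hochberg adjustment over all 22803 genes and a threshold of 0.05. Recovered reads went to edgeR 4.0.16 and DESeq2 1.42.0 as alternatives. The scripts were tested on simulated data. The members and lists were chosen with earlier results of these data known.

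Any member may be named. Values in every pool are given for genes past the threshold and, per role list, for the most abundant gene and that with the largest positive fold change. Of other lists the 2 genes with the smallest p in each direction among those past the threshold are named, or the 1 with the smallest p where none passes, and of marker lists the most abundant.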

Additional observations from a re-analysis of the deposited data

How the results depend on the processing

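The calls of casq1a, acta1a and acta1b held in limma, edgeR and DESeq2 under every setting run, and no called gene changed sign. The count of lower muscle genes was 9 in the main test, 3 to 18 with 1 library left out (3 without mutant replicate 1 or 3 or wild type replicate 2 or 3, 18 without mutant replicate 2, 8 without wild type replicate 1), 14 with total counts as the scaling, 18 with DESeq2 and 4 with no intensity trend. With settings chosen after seeing the data it was 34 without both libraries that stood apart, where 3 genes were higher, and 14 with per3 as a term. It was 8 with every transcript tested by itself, a setting also chosen after seeing the data. There actn3b was gained, and tnni2a.3 and myoz1a were lost (limma, Benjamini-Hochberg adjusted p = 0.0573 and 0.0514). A choice of pools by their distance from the rest makes each group look tighter than it is. The pools left out were also those nearest the other group on the first principal component, so that leaving them out sets the groups further apart. The cause of the other changes was not tested. The share of all genes called lower was 2.41% with total counts, 1.55% with no intensity trend and 0.439% to 3.44% with 1 library left out.

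The medians of the 5 gene classes kept their sign in every setting run. With 1 library left out the fast filament median was -0.68 to -0.39, the slow filament median 0.10 to 0.44, the shared filament median -0.87 to -0.44, the Z-disc median -0.41 to -0.19 and the calcium median -0.58 to -0.23. Without both libraries that stood apart the shared filament, Z-disc and calcium medians were -0.97, -0.52 and -0.65.

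Same-numbered pools did not all deviate together, with correlations of 0.143, 0.130 and -0.259 for numbers 1, 2 and 3, so the number is not taken as a pairing. With the replicate block in the limma fit the count was 7 lower and 0 higher, beside 2.14% and 2.16% of all genes. The calls of tnni2a.3 and mybpc1 ended there (adjusted p = 0.0755 and 0.0597), as did those of asph and atp1a2a outside the 55 genes (0.0662 and 0.0830). Other pseudocounts, filters on low values, sums over transcripts and edgeR gave 7 to 9.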
